A study of Mus musculus with 9 samples.

Results

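The genes described here are the interleukins and interleukin receptors of mouse lung outside the type 2 arm of immunity. They were chosen as the symbols of the deposited count table that begin with Il and a digit, leaving out Il21, Il25, Il33, Il1rl1, Il4ra, Il5ra, Il13ra1 and Il13ra2, and having 10 or more counts in at least 3 of the 9 libraries. The name pattern matched 82 of the 21983 genes listed, 8 were left out by name, 28 had too few counts and 46 remained. The 46 are 29 receptor chains, 14 ligands and 3 secreted inhibitors. Il17rb, a chain of the receptor for IL-25, is kept by this rule although IL-25 is a type 2 cytokine. The members nearest the count minimum were Il12b and Il23r, which reached 10 counts in 4 libraries, and the nearest symbols left out were Il13, Il17a and Il23a, which reached it in 2. The 28 low symbols were Il2, Il3, Il4, Il4i1, Il5, Il9, Il11ra2, Il12rb1, Il13, Il17a, Il17b, Il17c, Il17f, Il19, Il1f10, Il1f5, Il1f6, Il1f8, Il1rapl1, Il1rapl2, Il20, Il20ra, Il22, Il23a, Il24, Il27, Il31 and Il31ra. Of these, 9 were listed at 0 in every library, and a 0 in this table does not show that a transcript was absent.

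The libraries are lung RNA of BALB/c mice, an inbred strain, in 3 groups of 3. BSYQF stands for Bu-Shen-Yi-Qi formula, a mixture of medicinal herbs, which asthmatic mice received orally for 6 weeks at 20 g of raw herbs per kg. Asthma lungs came from asthmatic mice that received saline orally, and control lungs from normal mice that received saline in the same way. Dosing began on day 14, and neither the agent that induced the model nor the age and sex of the mice is given in the sources used here. The labels leave unsaid whether each library is 1 mouse, so each p-value refers to library-to-library spread, part of which may be technical.

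Interleukins are secreted messengers that cells of the immune system and of epithelia use to signal over short distances. Most bind receptors of 2 or more chains, and chains are often shared: gp130 (Il6st) serves the IL-6 family, the common gamma chain (Il2rg) serves receptors for IL-2, IL-7, IL-15 and IL-21, and Il10rb serves IL-10 and IL-22. Several families carry their own brakes, such as the IL-1 receptor antagonist (Il1rn), which occupies the IL-1 receptor without starting a signal, the decoy receptor Il1r2, the IL-18 binding protein (Il18bp) and the soluble IL-22 binding protein (Il22ra2). IL-10 restrains macrophages and dendritic cells.

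The results turn most on Il1rn, so the 250 bases before 2 of its 3 RefSeq start sites in GRCm38.p6 are shown, with Il6, a well-studied inflammatory cytokine gene, for comparison. The Il1rn windows lie on the plus strand at chr2:24336610-24336859 and chr2:24345121-24345370, and the Il6 window on the plus strand at chr5:30012864-30013113. Capitals mark matches, searched on both strands, to an AP-1 motif (TGANTCA) or to an NF-kB motif made of GGG, any pair of bases and then TTTCC.
Il1rn, upstream start: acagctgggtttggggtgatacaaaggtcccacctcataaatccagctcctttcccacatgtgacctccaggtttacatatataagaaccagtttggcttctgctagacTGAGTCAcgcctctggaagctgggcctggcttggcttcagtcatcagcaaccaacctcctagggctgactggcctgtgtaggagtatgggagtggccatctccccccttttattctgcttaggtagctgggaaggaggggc
Il1rn, downstream start: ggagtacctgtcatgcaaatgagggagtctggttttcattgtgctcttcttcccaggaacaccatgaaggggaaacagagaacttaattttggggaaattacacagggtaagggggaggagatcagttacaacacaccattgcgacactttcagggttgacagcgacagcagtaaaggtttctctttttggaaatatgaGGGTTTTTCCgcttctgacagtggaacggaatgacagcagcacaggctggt
Il6: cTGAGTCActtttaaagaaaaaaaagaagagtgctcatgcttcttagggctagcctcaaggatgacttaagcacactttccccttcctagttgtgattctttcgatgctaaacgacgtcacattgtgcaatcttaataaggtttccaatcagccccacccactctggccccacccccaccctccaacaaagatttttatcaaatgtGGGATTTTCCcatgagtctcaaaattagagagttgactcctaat
The upstream Il1rn window held the AP-1 letters from position -141 and no NF-kB match, and the downstream window held the NF-kB letters from position -51 and no AP-1 match, counted back from the start site. The Il6 window held both, at its first bases and from -44. Of 32851 RefSeq windows of this length 6.75% held the AP-1 letters and 1.41% the NF-kB letters, and a STAT motif (TTCNNNGAA) was in 7.02%. Among the members, 36 genes had 47 windows in the table, of which 8 held the AP-1 letters, 5 the NF-kB letters and 5 the STAT letters. The single windows of Il21r and Il3ra held none of the 3 motifs, and nor did the window of the Il1rn start that is not shown, which overlaps the downstream one. A match is a description of letters and not a binding site, and counts per gene cannot tell transcripts from the Il1rn starts apart.

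Each library held 16286385 to 22819199 counts on genes, of which the 46 members took 0.139 to 0.168%. Mitochondrial genes took 2.64 to 6.53% of counts in BSYQF, 3.77 to 10.3% in asthma and 2.19 to 3.46% in control, with the highest share in asthma replicate 2. Over all tested genes, libraries were correlated on the log2 scale. Asthma replicate 3 had a mean r of 0.9616 with the other asthma libraries, 0.9698 with the controls and 0.9729 with BSYQF. BSYQF replicate 1 had 0.9595 with the other BSYQF libraries and 0.9667 with asthma. BSYQF replicate 3 was also closer to the controls (0.9691) than to its own group (0.9657). What changes without the first 2 of these libraries is given beside the comparisons. Since each was closer to another group than to its own, leaving them out selects for group differences. The lung epithelial markers Sftpc, Scgb1a1, Ager and Epcam together reached 44080 to 67780 CPM in BSYQF, 43860 to 65820 CPM in asthma and 39300 to 53070 CPM in control. The level of a gene is given in CPM, the count scaled by library size and the TMM factor, and a change as a log2 fold change ± SE with its adjusted p from edgeR's quasi-likelihood test. In bulk lung, fewer cells of a type and less RNA per cell cannot be told apart.

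**Figure D1:**
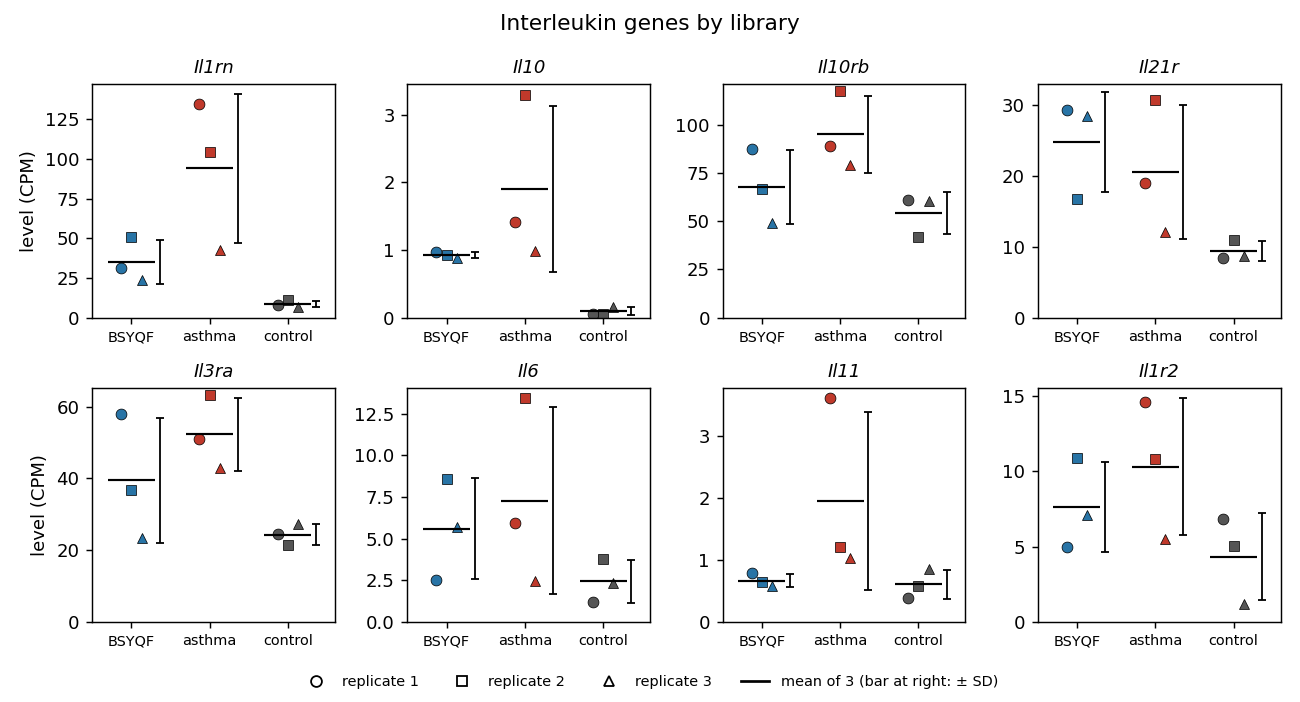
Level in CPM (vertical axes, linear from 0) of 8 interleukin genes in the 3 BSYQF, 3 asthma and 3 control libraries. Symbols are replicates, horizontal lines means and vertical bars ± SD. Il1rn, Il10 and Il21r lie above every control library in all 6 libraries of the model.

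Asthma was set against control to see which of these genes differ in the disease model. Il1rn, Il10, Il10rb, Il21r and Il3ra rose, and no member was called lower. That is 5 of 46 members, or 10.9%, beside 12.7% of all 14739 genes tested in either direction, 8.23% called higher and 4.45% called lower. The share of members called was thus close to that of all genes. All 46 members passed the expression filter of the fit. Their median log2 fold change was 0.24, with a range of -1.81 to 4.26, beside a median of 0.02 over all genes. The 3 asthma libraries all lay above the 3 control libraries in 14 members (22% of all genes) and all below in 2 (18.4% of all genes), so 16 of 46 did not overlap, beside 40.4% of all genes. The 14 were Il10, Il10ra, Il10rb, Il11, Il11ra1, Il12b, Il17rc, Il18bp, Il1rn, Il20rb, Il21r, Il2ra, Il2rg and Il3ra. In 12 of the 14, asthma replicate 3 was the lowest asthma library. Without it 14 of 46 members were called, or 30.4% beside 28.5% of all genes: the 5 above, Il10ra, Il11, Il11ra1, Il17ra, Il17rc, Il2rg and Il6 as higher, and Il17rd and Il18 as lower.

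**Figure D2:**
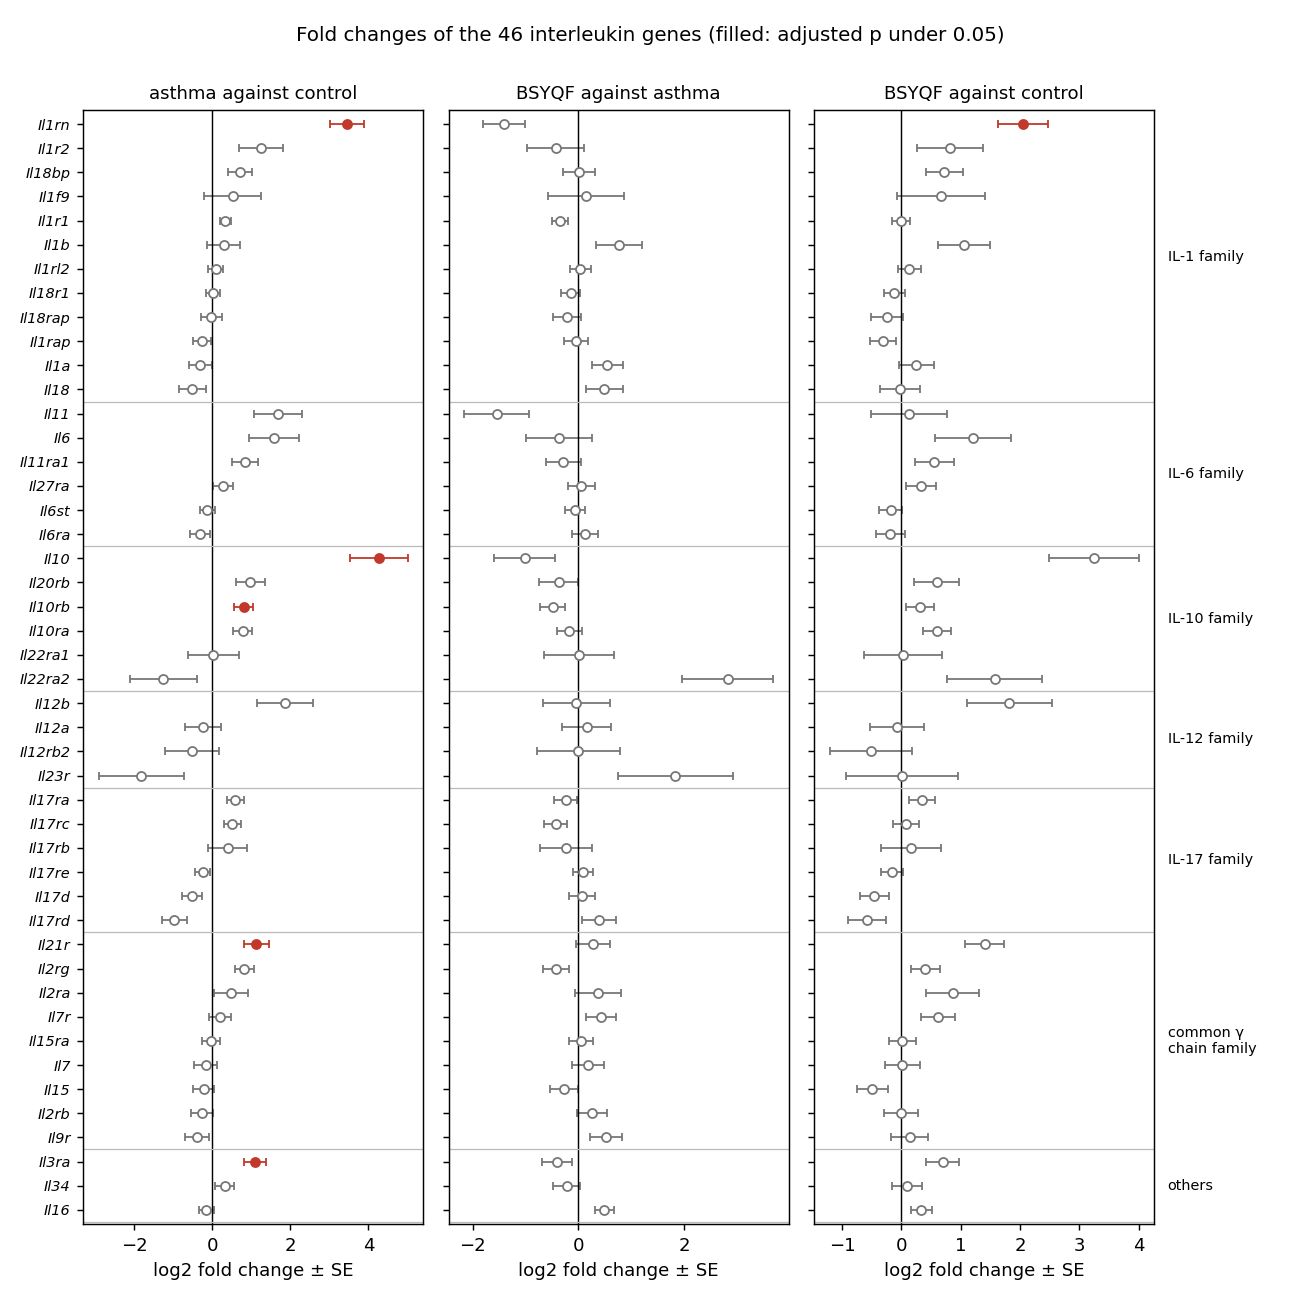
Log2 fold change (horizontal axes; bars are ± SE) of the 46 genes in the 3 comparisons, in blocks by family and ordered by the asthma change; the scales of the panels differ. Filled red points have an adjusted p under 0.05: 5 in asthma against control, 0 in BSYQF against asthma and 1 in BSYQF against control.

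Within the IL-1 family the antagonist moved and the ligands did not pass the test. Il1rn had 31.3, 50.7 and 23.7 CPM in BSYQF lungs, 134, 104.7 and 42.8 CPM in asthma lungs, and 7.997, 10.9 and 6.70 CPM in control lungs. Every asthma library and every BSYQF library lay above every control library, and asthma replicate 3 lay within the range of BSYQF. In asthma against control Il1rn rose by 3.46 ± 0.44 on the log2 scale (adjusted p = 0.0042), with means of 94.0 ± 46.8 CPM in asthma and 8.53 ± 2.14 CPM in control (SD, n = 3 each). The call held in each of the 17 alternative fits, where the log2 fold change was 3.09 to 3.80 and adjusted p reached 0.037 at most.

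Il1b, the main inflammatory ligand of the family, had 35.6, 126 and 50.2 CPM in BSYQF, 42.9, 49.7 and 32.5 CPM in asthma, and 35.99, 45.2 and 21.1 CPM in control. The asthma and control ranges overlapped, and BSYQF replicate 2 stood above the other libraries. The log2 fold change in asthma was 0.29 ± 0.43 (adjusted p = 0.663). Il1a, the other ligand of the IL-1 receptor, had 20.5, 20.3 and 9.32 CPM in BSYQF, 10.4, 9.08 and 14.7 CPM in asthma, and 14.1, 13.4 and 14.6 CPM in control (-0.30 ± 0.30 in asthma, adjusted p = 0.498). Il1rn shares chromosome 2 with both ligands but lies 104.9 Mb from them: Il1rn spans 24336853 to 24351494 on the plus strand of mm10, while Il1a and Il1b span 129299610 to 129371139 together, on the minus strand. All 3 are annotated as protein coding.

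Set per length of annotated exon, the level of Il1rn over the summed levels of Il1a and Il1b was 0.195, 0.120 and 0.138 in BSYQF, 0.876, 0.617 and 0.316 in asthma, and 0.0555, 0.0645 and 0.0656 in control. The 3 groups did not overlap in this ratio, which is a description with no test since Il1rn itself was called. By level alone Il1rn overlapped between asthma and BSYQF. BSYQF replicate 2 had the highest Il1rn of its group and also the highest Il1b, at 66.1 CPM per kb, which lowers its ratio. Il1r2 over the signalling receptor Il1r1 was 0.345, 0.720 and 0.397 in BSYQF, 0.673, 0.508 and 0.318 in asthma, and 0.441, 0.342 and 0.0666 in control, with overlap between all groups. Il18bp over Il18 was 0.433, 0.316 and 0.469 in BSYQF, 1.19, 0.753 and 0.247 in asthma, and 0.213, 0.255 and 0.271 in control. Asthma replicate 3 lay among the controls in that ratio.

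**Figure D3:**
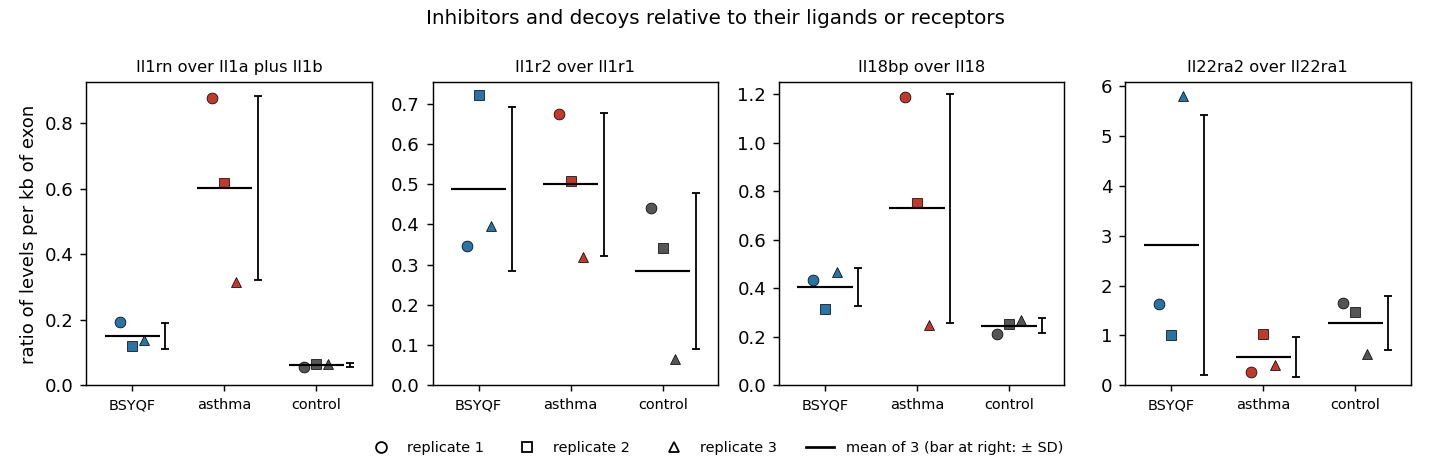
Ratio of levels per kb of exon (vertical axes, linear from 0) for 4 inhibitors or decoys over their ligands or signalling receptor, in BSYQF, asthma and control libraries. Symbols are replicates, lines means and bars ± SD; only in the panel of Il1rn over its ligands do the 3 groups, among these 4 ratios, not overlap.

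Other inhibitors of the IL-1 family did not pass. Il1r2 had 4.97, 10.9 and 7.13 CPM in BSYQF, 14.6, 10.8 and 5.51 CPM in asthma, and 6.81, 5.03 and 1.17 CPM in control, with a log2 fold change of 1.25 ± 0.55 in asthma (adjusted p = 0.139). Il18bp averaged 11.7 ± 3.08 CPM in BSYQF, 11.6 ± 4.84 CPM in asthma and 7.09 ± 0.499 CPM in control (0.71 ± 0.31 in asthma, adjusted p = 0.131). All 3 asthma and all 3 BSYQF libraries were above the controls in Il18bp, and 80 bases of its exons are shared with Numa1, so the handling of shared reads could affect it.

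The receptors of the family form a cluster on chromosome 1, where Il1r2, Il1r1, Il1rl2, Il18r1 and Il18rap lie within 478 kb (40074079 to 40551705, plus strand). None of the 5 was called. Il18r1, the binding chain of the IL-18 receptor, averaged 88.0 ± 14.5 CPM in BSYQF, 97.5 ± 11.5 CPM in asthma and 95.6 ± 17.9 CPM in control. Il1rap, the accessory chain of Il1r1 and Il1rl2, encoded on another chromosome, was at -0.26 ± 0.22 in asthma (adjusted p = 0.438). Il18rap, the accessory chain for IL-18, was at -0.03 ± 0.27 (adjusted p = 0.952). Il1rl2, the receptor for IL-36, averaged 17.9 ± 0.216 CPM in BSYQF, 17.4 ± 3.57 CPM in asthma and 16.3 ± 2.01 CPM in control. Its ligand Il1f9 (IL-36 gamma) varied widely within groups, with 1.82, 22.9 and 11.4 CPM in BSYQF, 17.7, 7.33 and 7.71 CPM in asthma, and 8.27, 10.998 and 3.51 CPM in control. Il18 had 10.1, 8.89 and 10.3 CPM in BSYQF, 4.92, 4.17 and 11.6 CPM in asthma, and 10.9, 9.07 and 9.63 CPM in control. Here asthma replicates 1 and 2 lay below every other library and replicate 3 above them all, and the log2 fold change of -0.51 ± 0.34 in asthma did not pass (adjusted p = 0.313). Without asthma replicate 3 it was called.

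In the IL-10 family the ligand and one receptor chain rose. Il10 had 16, 16 and 17 counts in BSYQF, 25, 49 and 22 counts in asthma, and 1, 1 and 3 counts in control. Its level was 0.969, 0.930 and 0.885 CPM in BSYQF, 1.41, 3.29 and 0.986 CPM in asthma, and 0.0540, 0.0585 and 0.160 CPM in control. The lowest asthma library was above the highest BSYQF library, which in turn was above every control. The fitted log2 fold change in asthma was 4.26 ± 0.74 (adjusted p = 0.0106), and since it rests on 5 control counts in all, the ratio of summed counts is the plainer value: 19.0-fold, with a 95% exact interval of 7.88 to 59.97 that covers counting error only. The call was kept in 16 of 17 alternatives and lost without control replicate 2 (4.05, adjusted p = 0.0575). The log2 fold change was 3.596 without asthma replicate 2 and 4.90 without control replicate 3. Il10 occupies 131019845 to 131024974 on chromosome 1 (mm10, plus strand).

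Il10rb, the shared signalling chain, had 87.5, 66.9 and 49.0 CPM in BSYQF, 88.7, 118 and 79.1 CPM in asthma, and 61.1, 41.7 and 60.3 CPM in control. The asthma libraries did not overlap the controls, while those of BSYQF did. It rose in asthma by 0.81 ± 0.24 (adjusted p = 0.048), and the call was kept in 9 of 17 alternatives. Among the fits that lost it were limma voom and those without asthma replicate 1 or 2, without BSYQF replicate 2 and without any 1 control library (adjusted p up to 0.188). Of its exon bases 569 are shared with the gene model Gm21970, so reads there could be counted to neither. Il10ra, the ligand-binding chain, had 41.4, 44.4 and 44.0 CPM in BSYQF, 43.7, 59.9 and 43.3 CPM in asthma, and 17.6, 32.3 and 35.7 CPM in control. All 6 libraries of the model were above the controls, and the log2 fold change of 0.78 ± 0.24 in asthma missed the threshold at an adjusted p of 0.0535. Il10ra was called in 4 of 17 alternatives, DESeq2 and the fit without asthma replicate 3 among them.

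The remaining members of that family serve IL-20 and IL-22. Il20rb, a chain of IL-20 type receptors, averaged 2.98 ± 1.12 CPM in BSYQF, 3.87 ± 0.926 CPM in asthma and 1.97 ± 0.120 CPM in control (0.97 ± 0.37 in asthma, adjusted p = 0.0971). Il22ra1, the IL-22 receptor of epithelia, averaged 1.78 ± 0.914 CPM in BSYQF, 1.75 ± 1.23 CPM in asthma and 1.74 ± 0.895 CPM in control. Its soluble counterpart Il22ra2 had 1.15, 2.15 and 13.5 CPM in BSYQF, 0.396, 0.672 and 1.26 CPM in asthma, and 2.86, 1.17 and 1.60 CPM in control. BSYQF replicate 3 held 259 counts of Il22ra2 where no other library had more than 53. The log2 fold change in asthma against control was -1.25 ± 0.86 (adjusted p = 0.324).

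Of the 9 members of the common gamma chain family 1 rose, and the family median was -0.03 in asthma against control. Il21r, the receptor of the T helper cytokine IL-21, had 29.2, 16.7 and 28.4 CPM in BSYQF, 19.0, 30.7 and 12.1 CPM in asthma, and 8.43, 10.998 and 8.67 CPM in control. All 6 libraries of the model were above the controls, and BSYQF and asthma overlapped. It rose in asthma by 1.13 ± 0.33 (adjusted p = 0.0475). The call was kept in 7 of 17 alternatives. Among the fits that lost it were DESeq2 size factors in edgeR, only the 2 groups compared, limma voom and those without asthma replicate 1 or 2, without BSYQF replicate 2 or without any 1 control library (adjusted p up to 0.203). Il21r occupies 125603429 to 125633570 on chromosome 7 (mm10, plus strand).

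Il2rg, the shared chain itself, had 29.3, 23.1 and 23.7 CPM in BSYQF, 31.8, 45.9 and 24.2 CPM in asthma, and 15.1, 18.7 and 23.6 CPM in control. The lowest asthma library barely cleared the highest control, and the log2 fold change of 0.82 ± 0.25 missed the threshold (adjusted p = 0.0506). Il2rg was called in 6 of 17 alternatives: no filter on low counts, the newer dispersion method, DESeq2, without asthma replicate 3, without BSYQF replicate 1 and without both. Its exons share 728 bases with the gene model Gm20489. The other 7 members of the family had log2 fold changes of -0.38 to 0.49 in asthma and none was called. They include Il2rb, the receptor chain for IL-2 and IL-15 on natural killer and T cells, at 44.5 ± 3.54 CPM in BSYQF, 37.3 ± 11.7 CPM in asthma and 44.8 ± 18.3 CPM in control, and Il7r, the IL-7 receptor of lymphocytes, at 48.7 ± 7.19 CPM in BSYQF, 36.3 ± 12.7 CPM in asthma and 31.7 ± 9.88 CPM in control. The remaining 5 are the ligands Il7 and Il15 and the receptor chains Il2ra, Il9r and Il15ra.

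Il3ra, the binding chain of the receptor for IL-3, a growth factor of basophils and mast cells, had 58.0, 36.9 and 23.5 CPM in BSYQF, 50.9, 63.2 and 43.0 CPM in asthma, and 24.5, 21.3 and 27.2 CPM in control. The asthma libraries did not overlap the controls, and BSYQF replicate 3 lay among the controls. It rose in asthma by 1.10 ± 0.28 (adjusted p = 0.0347). The call was kept in 11 of 17 alternatives, among them every other tool and scaling, and was lost without asthma replicate 1 or 2, without BSYQF replicate 2 or without any 1 control library (adjusted p up to 0.137). Il3ra occupies 14346275 to 14356011 on chromosome 14 (plus strand), and 46 of its exon bases are shared with the antisense gene Gm48860. IL-3 itself (Il3) was listed at 0 in all 9 libraries. Of the markers of mast cells and basophils 0 of 5 were called in asthma. Their summed level was 127.5 to 194 CPM in BSYQF, 95.5 to 157 CPM in asthma and 184 to 223 CPM in control. The single markers went both ways in asthma. Fcer1a (1.17 ± 0.78), Mcpt8 (0.998 ± 0.83) and Ms4a2 (0.48 ± 0.66) were above 0, and Kit (-0.63 ± 0.22) and Cpa3 (-0.31 ± 0.58) below. Il34, a ligand of the receptor for macrophage colony-stimulating factor, averaged 23.4 ± 4.85 CPM in BSYQF, 27.4 ± 2.35 CPM in asthma and 21.9 ± 8.17 CPM in control (0.32 ± 0.25 in asthma, adjusted p = 0.387).

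Of the 6 members that signal through gp130, none was called in asthma, where 3 had an unadjusted p under 0.05 (beside 34.1% of all genes; 18 of all 46 members). Il6 had 2.48, 8.60 and 5.72 CPM in BSYQF, 5.94, 13.4 and 2.42 CPM in asthma, and 1.19, 3.74 and 2.34 CPM in control. Asthma replicate 3 lay within the control range, and the log2 fold change was 1.58 ± 0.64 (adjusted p = 0.113). Without that library Il6 was called (1.98, adjusted p = 0.0281), and without asthma replicate 2 it was at 0.76 (adjusted p = 0.485). Il11, a cytokine studied in fibroblasts and fibrosis, had 0.787, 0.639 and 0.572 CPM in BSYQF, 3.62, 1.21 and 1.03 CPM in asthma, and 0.378, 0.585 and 0.851 CPM in control. The asthma libraries lay above all others, with asthma replicate 1 well above its group, and the log2 fold change was 1.68 ± 0.62 (adjusted p = 0.0883). It was 0.86 without asthma replicate 1 (adjusted p = 0.384) and was called without asthma replicate 3 (1.98, adjusted p = 0.0431). Its receptor chain Il11ra1 had 148, 82.9 and 60.6 CPM in BSYQF, 98.4, 174 and 82.5 CPM in asthma, and 69.8, 57.3 and 71.2 CPM in control (0.84 ± 0.33, adjusted p = 0.104). Il11ra1 has a close copy, Il11ra2, listed at 0 throughout, so its counts are uncertain. The shared chain Il6st averaged 359 ± 87.8 CPM in BSYQF, 375 ± 58.3 CPM in asthma and 408 ± 24.7 CPM in control, and the IL-6 binding chain Il6ra 98.8 ± 17.4 CPM in BSYQF, 90.4 ± 29.1 CPM in asthma and 112 ± 28.6 CPM in control. The sixth member, the IL-27 receptor Il27ra, was at 0.28 ± 0.25 in asthma (adjusted p = 0.453).

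The IL-12 and IL-17 families gave no call. Il12b, the p40 chain of IL-12 and IL-23, had 5, 18 and 16 counts in BSYQF, 8, 17 and 15 counts in asthma, and 4, 3 and 4 counts in control. The summed counts differed 3.61-fold between asthma and control, with a 95% exact counting interval of 1.82 to 7.79, while the fitted log2 fold change of 1.86 ± 0.72 did not pass (adjusted p = 0.0992). Il23r, the IL-23 receptor chain, had 2, 17 and 11 counts in BSYQF, 0, 6 and 2 counts in asthma, and 14, 12 and 4 counts in control, with overlap between asthma and control and no difference detectable at this depth (-1.81 ± 1.09 in asthma, adjusted p = 0.259). Il12a and Il12rb2, the p35 chain and a receptor chain of IL-12, had log2 fold changes of -0.24 ± 0.46 and -0.51 ± 0.69 in asthma. Exons of Il12rb2 share 1519 bases with Serbp1 on the other strand.

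Among the IL-17 receptors, Il17ra, the chain shared by the family, had 71.0, 82.6 and 87.9 CPM in BSYQF, 114, 106 and 66.5 CPM in asthma, and 51.8, 81.1 and 56.9 CPM in control (0.59 ± 0.22 in asthma, adjusted p = 0.0935). Its partner Il17rc averaged 38.1 ± 8.88 CPM in BSYQF, 51.4 ± 15.1 CPM in asthma and 35.9 ± 1.23 CPM in control (0.52 ± 0.22 in asthma, adjusted p = 0.127). Il17rd, a family member known as an inhibitor of growth factor signalling, was the 1 member lower in asthma at an unadjusted p under 0.05 (15.1% of all genes; 17 members were higher, beside 19% of all genes). It had 34.3, 39.3 and 49.2 CPM in BSYQF, 30.5, 14.7 and 48.2 CPM in asthma, and 61.0, 64.0 and 58.4 CPM in control. All 6 libraries of the model lay below the controls, and the log2 fold change of -0.97 ± 0.32 in asthma did not pass (adjusted p = 0.0686). Il17rd was called lower in 4 of 17 alternatives, DESeq2 and the fit without asthma replicate 3 among them. Il17d, the 1 ligand of the family among the members, averaged 12.7 ± 3.34 CPM in BSYQF, 12.2 ± 2.93 CPM in asthma and 17.4 ± 2.07 CPM in control (-0.52 ± 0.25 in asthma, adjusted p = 0.163). Il17rb and Il17re, whose ligands act on epithelia and on type 2 cells, had log2 fold changes of 0.40 ± 0.50 and -0.25 ± 0.19.

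**Figure D4:**
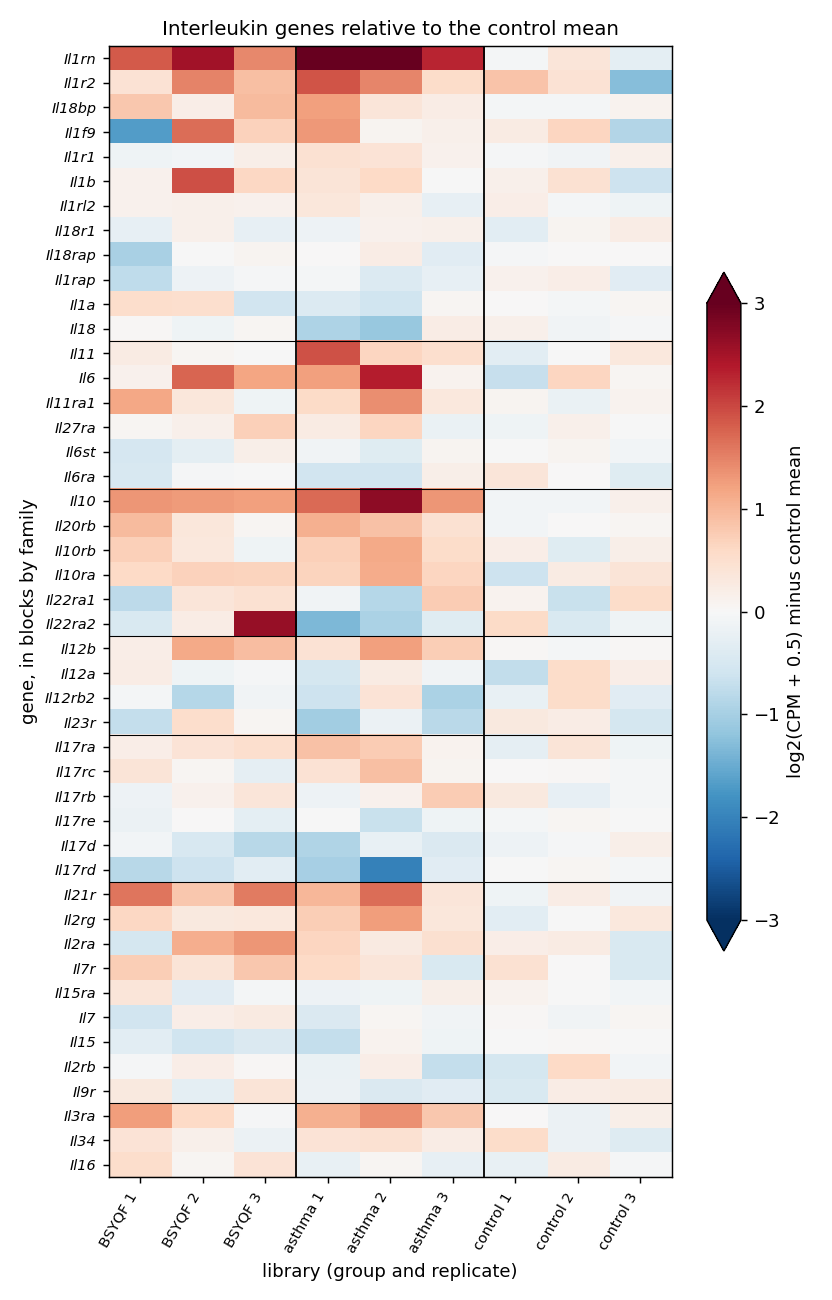
Heat map of the 46 genes (rows, in blocks by family) in the 9 libraries (columns, 3 BSYQF, 3 asthma and 3 control); colour is log2(CPM + 0.5) minus the control mean, red higher and blue lower. Il1rn and Il10, among other genes, are red in all 6 libraries of the model. Asthma replicate 3 is paler than asthma replicates 1 and 2 in most genes that are red there.

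BSYQF was set against asthma to see which genes differ between treated and untreated asthmatic mice. No member was called by edgeR's quasi-likelihood test, beside 0.00678% of all genes, and 5 of 46 had an unadjusted p under 0.05, or 10.9% beside 7.94% of all genes. Of the 5, Il22ra2 and Il16 were higher (3.79% of all genes) and Il1rn, Il11 and Il1r1 lower (4.15%). DESeq2 called 2 members (0.835% of all genes), Il1rn as lower and Il22ra2 as higher, and limma voom and the newer edgeR dispersion method 0. The median log2 fold change of the members was 0.00, with 23 above and 23 below 0. Il1rn was at -1.41 ± 0.40 on the log2 scale (35.3 ± 13.9 CPM in BSYQF, 94.0 ± 46.8 CPM in asthma) and did not pass (adjusted p = 0.466). Over the 17 alternatives its fold change was -1.77 to -1.05, with adjusted p-values of 0.0213 to 0.999. Without asthma replicate 3 it was called at -1.76 (adjusted p = 0.0324). Il11 was at -1.54 ± 0.61 (adjusted p = 0.609), and Il10 at -1.01 ± 0.58 (adjusted p = 0.644). In these 2 genes all BSYQF libraries lay below all asthma libraries (4.76% of all genes). Both move when 1 library is left out: Il11 was at -0.73 without asthma replicate 1, and Il10 at -0.36 without asthma replicate 2.

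In the other direction Il16, a chemoattractant of CD4 cells, had 41.2, 29.9 and 38.3 CPM in BSYQF against 24.6, 29.6 and 23.9 CPM in asthma. It was the 1 member in which every BSYQF library was above every asthma library (4.99% of all genes, and 9.75% in either direction). Its log2 fold change of 0.49 ± 0.18 did not pass (adjusted p = 0.587). Exons of Il16 share 1202 bases with Stard5 and 166 with 2310044K18Rik, both on the other strand, so the handling of shared reads could affect it. Il22ra2 was at 2.82 ± 0.86 (adjusted p = 0.513), and at 1.07 without BSYQF replicate 3. Il1b was at 0.76 ± 0.43 (adjusted p = 0.644), with the highest library BSYQF replicate 2. The summed neutrophil markers S100a8, S100a9, Cxcr2, Retnlg, Mmp8 and Csf3r were 151, 941 and 1685 CPM in BSYQF, 595, 340.5 and 417 CPM in asthma, and 465, 731 and 185 CPM in control. Their part in the Il1b values was not tested. With both asthma replicate 3 and BSYQF replicate 1 left out, 7 of 46 members were called, or 15.2% beside 11.7% of all genes. Il18 and Il22ra2 were called higher, and Il10rb, Il11ra1, Il17rc, Il1rn and Il3ra lower. Both libraries were closer to another group than to their own, so this fit selects for group differences and its calls are no separate support.

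The comparison of BSYQF with control uses the same control libraries as that of asthma with control, so their results are not independent. Il1rn rose in BSYQF by 2.05 ± 0.42 (adjusted p = 0.0386) and was the 1 member of 46 called, or 2.17% beside 1.67% of all genes (1.63% higher and 0.0407% lower). That call was kept in 9 of 17 alternatives, and was lost with limma voom, with no filter on low counts, without asthma replicate 2, without BSYQF replicate 1 or 2 and without any 1 control library (adjusted p up to 0.186). By unadjusted p, 8 members were higher (10.1% of all genes) and 0 lower (5.7%), or 8 of 46 beside 15.8% of all genes. Il10 was at 3.25 ± 0.75 (adjusted p = 0.0603) and 10.1-fold higher in summed counts, with a 95% exact counting interval of 4.03 to 32.4. Il21r was at 1.40 ± 0.33 (adjusted p = 0.0631). All BSYQF libraries lay above all controls in 7 members (13% of all genes; 24.8% in either direction), Il10, Il10ra, Il12b, Il18bp, Il1rn, Il20rb and Il21r. They lay below in 2 (11.8% of all genes), Il17rd and Il15, a survival factor of natural killer cells at 5.37 ± 0.586 CPM in BSYQF and 7.52 ± 0.135 CPM in control.

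Partners of these pathways were counted from lists drawn up beside the members. Over all genes 8.23% rose and 4.45% fell in asthma, with a median log2 fold change of 0.02. In BSYQF against control 1.63% of all genes rose, with a median of -0.003. The lists were chosen with earlier results of these data known, so the counts are a description only. Among 16 processing and signalling partners of the IL-1 family, 4 rose in asthma and 0 fell, with a list median of 0.30 on the log2 scale. They were Pycard, the inflammasome adaptor (1.54 ± 0.27, adjusted p = 0.0108), Casp4, which senses bacterial lipid inside cells (0.9997 ± 0.16), Myd88, the adaptor of IL-1 receptors (0.71 ± 0.18), and Nfkbiz, a nuclear cofactor of NF-kB (0.61 ± 0.18). Casp1, which cleaves IL-1 beta and IL-18, was at 0.77 ± 0.24 (adjusted p = 0.0596). Of 13 tested gp130 partners 3 rose, Lif (1.43 ± 0.40), Osmr (0.78 ± 0.19) and the feedback inhibitor Socs3 (1.16 ± 0.29), while the receptors Lifr (-0.66 ± 0.17) and Cntfr (-2.16 ± 0.41) fell. In a list for IL-34 and the colony-stimulating factors, Csf2rb and Csf2rb2, the beta chains that pair with Il3ra in mice, rose in asthma by 1.24 ± 0.18 and 1.60 ± 0.27 and in BSYQF against control by 1.26 ± 0.18 and 1.81 ± 0.27. Csf2ra, the binding chain for GM-CSF, rose in asthma by 1.41 ± 0.41. Of 10 genes on that list 3 rose in asthma and 2 in BSYQF.

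Among 11 genes listed for IL-17 signalling and response, 8 rose in asthma and 7 in BSYQF against control, with list medians of 2.28 and 2.89. They include Saa3, an acute-phase protein (7.44 ± 1.02 in asthma and 5.23 ± 0.93 in BSYQF), the neutrophil attractants Cxcl5 (5.14 ± 0.88 in asthma and 4.78 ± 0.87 in BSYQF) and Cxcl2 (3.50 ± 0.96 in asthma and 5.12 ± 0.9965 in BSYQF), and Lcn2, an iron-sequestering defence protein (4.005 ± 0.41 in asthma and 3.06 ± 0.39 in BSYQF). Many other signals also raise these genes. Il17a and Il17f themselves were below the count minimum. Of 8 partners of IL-12, IL-23 and IL-27 the interferon-gamma receptor chain Ifngr2 rose (0.94 ± 0.20), and of 6 partners of the common gamma chain Jak3 rose (1.03 ± 0.26) and Stat5b fell (-0.50 ± 0.14). In BSYQF against asthma 0 genes of these 6 lists were called by edgeR.

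Markers of other cell types moved beside the members. Of 7 monocyte and macrophage markers 6 rose in asthma, with summed levels of 542 to 826 CPM in BSYQF, 680.4 to 785 CPM in asthma and 266 to 314.5 CPM in control, and of 6 dendritic cell markers 3 rose. All 3 adipocyte markers and all 4 heart-type muscle markers fell in asthma, with summed heart-type levels of 247 to 623 CPM in BSYQF, 47.7 to 115 CPM in asthma and 252 to 638 CPM in control. Endothelial Kdr fell (-1.29 ± 0.35, 1 of 3 markers) and epithelial Epcam rose (0.57 ± 0.14, 1 of 4). Krt5, a keratin on a list for squamous epithelium, rose in BSYQF against asthma (5.15 ± 0.60, adjusted p = 0.0432). It was the 1 gene of all called in that comparison, and fell in asthma against control (-4.13 ± 0.60, adjusted p = 0.00715). Krt14, the other tested gene of that list, was called in neither (1.74 ± 0.91 and -0.33 ± 0.97). The 4 keratins of the list summed to only 0.471 to 1.26 CPM in asthma, so these changes rest on few counts there. Of the T cell (5 in the table), natural killer and cytotoxic (6), B cell (4) and neutrophil (6) markers 0 were called in any comparison. The part of these cells in the values of Il1rn, Il10, Il10rb, Il21r and Il3ra was not tested.

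Set per length, on the scale of CPM per kb of annotated exon, the members spanned a wide range of levels. In control lungs Il6st was the highest at 36.7 ± 2.22, followed by Il18r1 (19.8 ± 3.71), Il1b (17.9 ± 6.38) and Il11ra1 (14.8 ± 1.71), and the spreads of these last 3 overlap. Il10 was the lowest at 0.0692 ± 0.0456. By mean, Il1b was the highest in BSYQF lungs at 37.0 ± 25.5, with Il6st next at 32.4 ± 7.92. That order rests on BSYQF replicate 2. Replicates 1, 2 and 3 of BSYQF had 18.7, 66.1 and 26.3 for Il1b, and 25.9, 30.0 and 41.2 for Il6st. In asthma lungs Il6st was the highest at 33.8 ± 5.26. The level of Il1rn stood at rank 21 in BSYQF (6.37 ± 2.51), rank 8 in asthma (17.0 ± 8.45) and rank 32 of 46 in control (1.54 ± 0.386). Over the 9 libraries, the members whose CPM followed that of Il1rn most closely were Il10 (Spearman's rho 0.883), Il20rb (0.833), Il17rc (0.817), Il10rb (0.783) and Il17ra (0.783). These libraries fall into 3 groups and the values are a description only.

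The authors' deposited table for asthma against control lists 8 of the 46 members, all higher: Il1rn, Il3ra, Il10, Il21r, Il6, Il11, Il1r2 and Il12b. Every gene in the authors' deposited tables differs by 1 or more on the log2 scale with an unadjusted p no higher than 0.05, so they are not calls at an adjusted p, and Il11, Il1r2 and Il12b have an adjusted p of 0.0734, 0.0837 and 0.131 there. Their deposited table for BSYQF against control lists 5, all higher, and that for BSYQF against asthma lists 3, Il22ra2 as higher and Il1rn and Il11 as lower. Among symbols below the count minimum, the authors list Il17f and Il23a as higher in asthma against control (their adjusted p = 0.138 and 0.0867). Il17a and Il23a are listed as higher in BSYQF against control (their adjusted p = 0.00154 and 0.208), where Il17a had 0 counts in every control library. These tables compare the same libraries, so the same direction there is no separate support.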

How the data were processed

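Per the labels' protocols, lung RNA was isolated with Trizol and 3 µg per library went into NEBNext Ultra libraries. FastQC, cutadapt, STAR, HTSeq, DESeq2 and mm10 appear in the submitters' processing notes, without versions, and the strand setting and gene annotation were not stated in the sources read. The authors deposited unnormalized whole-number counts per gene symbol, which every test here used. Tables of 3 comparisons hold the authors' log2 fold change, p-value and adjusted p per the file headers, and were used only to see which members they list. The 36 columns of values per library in those tables were not used.

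Counts were filtered with filterByExpr, TMM-scaled (factors 0.914 to 1.07) and fitted in 1 model of the 3 groups with edgeR 4.0.16 in R 4.3.3 (glmQLFit, robust, default dispersion method; glmQLFTest), with Benjamini-Hochberg adjustment over 14739 genes and a threshold of 0.05. The fit was tested on simulated data. The SE is the size of the log2 fold change divided by the square root of F. The 17 alternatives were another scaling, no filter, DESeq2 1.42.0, limma voom (3.58.1), the newer dispersion method, a replicate block, 2-group fits, each library left out, and both asthma replicate 3 and BSYQF replicate 1 left out. Members, lists, roles and alternatives were chosen with earlier results of these data known. Members called in any comparison, or changed by 1 or more on the log2 scale in asthma, were to be given with values in every library. A call needs an adjusted p under 0.05.

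All 46 members were matched by symbol to GENCODE vM21 (GRCm38, mm10) for coordinates and exon lengths, and 15 share exon bases with another gene. Depth was 16286385 to 22819199 counts per library, so 3 counts correspond to 0.131 to 0.184 CPM before scaling.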

Additional observations from a re-analysis of the deposited data

How the results depend on the processing

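In asthma against control 5 members were called. DESeq2 called 8 (17.4%, beside 22.5% of all genes) and limma voom 3 (6.52%, beside 8.67%). With both asthma replicate 3 and BSYQF replicate 1 left out 17 were called (37%, beside 36%). Leaving out each library in turn gave 1 (without control replicate 2, 2.17% beside 1.22%) to 14 (without asthma replicate 3, 30.4% beside 28.5%). In BSYQF against asthma 0 members were called, and 2 with DESeq2 (4.35%, beside 0.835%). With both libraries left out 7 were called (15.2%, beside 11.7%). Leaving out each library gave 0 to 1, with 1 without asthma replicate 3 (2.17%, beside 0.763%). In BSYQF against control 1 member was called. The number was 0 without a filter on low counts (beside 1.5%) and 3 with only the 2 groups compared (6.67%, beside 2.68%). DESeq2 called 3 (6.52%, beside 5.6%) and limma voom 0 (beside 0.611%). With both libraries left out 2 were called (4.35%, beside 2.87%). Leaving out each library gave 0 to 3, with 3 without asthma replicate 3 (6.52%, beside 3.77%). Asthma replicate 3 and BSYQF replicate 1 were each closer to another group than to their own, so fits without them select for group differences. Each left-out fit also had fewer libraries. The causes of the changed counts of calls were not tested. The direction reversed in 1 case: Il22ra2 in BSYQF against control was at 1.58, and at -0.19 (without BSYQF replicate 3) to 2.05 with each library left out. The replicate block called 5, 0 and 1 members in the 3 comparisons (10.9, 0 and 2.17%, beside 9.97, 0.102 and 1.61% of all genes). Of these, 3, 0 and 1 were among those called without the block. In asthma against control it called Il10ra as higher and Il17rd as lower, and did not call Il10rb and Il21r. The labels do not say that numbers pair libraries: same-numbered libraries correlated above 0.1 in 2 of 9 pairs and matched best with their own number in 3 of 18 cases. Scaling by DESeq2 size factors moved the median of all genes by under 0.1 on the log2 scale. Few counts limit Il10, Il12b and Il23r, whose control libraries held 1 to 14 counts each.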

Other observations

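Among the symbols below the count minimum, Il17a, the founding cytokine of the IL-17 family, had 4, 34 and 14 counts in BSYQF, 7, 0 and 4 counts in asthma, and 0, 0 and 0 counts in control. In control libraries 3 counts correspond to 0.165 to 0.181 CPM, which is the level that a count of 0 allows. Il23a, the p19 chain of IL-23, had 0, 32 and 2 counts in BSYQF, 4, 19 and 3 counts in asthma, and 2, 0 and 0 counts in control. The highest library was BSYQF replicate 2 for both genes, which was also the highest for Il1b and Il1f9. Il12rb1, a receptor chain shared by IL-12 and IL-23, was listed at 0 in all 9 libraries.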
